A study of Mus musculus with 6 samples.

Results

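Genes of endocytosis, the uptake of material from outside the cell in membrane vesicles, were examined in cultured mouse ovarian cells exposed to polystyrene particles. The list of 33 genes was set by name: 8 genes of clathrin and its adaptors, 4 of vesicle scission and membrane bending, 6 of caveolae, 2 flotillins, 8 of endosomes and recycling, and 5 scavenger or endocytic receptors. Of the 30862 gene rows, 32 belonged to the list, and the scavenger receptor Marco was not analysed here. RNA was sequenced from 3 PS-MP libraries, made from cells given sonicated polystyrene microplastics of 100 nm at 750 µg/mL for 24 h, and from 3 control libraries that received 0 µg/mL and carry the label WT. The labels call the cells of both groups primary granulosa cells, from ICR mice aged 21 days, that had been left to attach for 12 h. The labels name the libraries of a group biological replicates without saying whether they came from separate animals or cultures, so the p-values given here cover only how far these libraries scatter, which may be technical.

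Libraries held 56967176 to 70240738 estimated counts, and 11439 to 11608 genes per library reached 1 FPKM (fragments per kilobase of transcript, scaled to sequencing depth). The FPKM of all genes summed to 284964 to 290681 in PS-MP and 274177 to 283405 in control libraries, without overlap. The deposited table holds a second set of columns named for 6 libraries, and the names alone do not settle which set belongs to these samples, which touches every value below. Of 14 granulosa cell markers measured, 6 reached 1 FPKM on average. Foxl2, which keeps granulosa cells from changing fate, averaged 0.109 ± 0.0357 FPKM in PS-MP and 0.112 ± 0.0802 FPKM in control libraries (SD, n = 3 each, as for all means below), and Inhba, an activin subunit of these cells, 112 ± 23.0 FPKM in PS-MP and 122 ± 20.9 FPKM in control libraries. Acta2, the actin of smooth muscle and pericytes, averaged 1807 ± 369 FPKM in PS-MP and 1851 ± 268 FPKM in control libraries. The low Foxl2 and high Acta2 are not the levels that the name granulosa cells would lead a reader to assume. The levels below are those of whole cultures, and the part of granulosa cells in them was not tested. In bulk RNA a smaller share of cells of a type and less RNA per cell cannot be told apart.

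Endocytosis runs along several routes that differ in their coats. In the clathrin route, the adaptor complex AP-2 gathers cargo receptors at the plasma membrane, clathrin triskelia assemble around the bud, and the GTPase dynamin cuts it free. Caveolae are small flask-shaped pits built from caveolins and coated by cavins, abundant in muscle, fat and endothelial cells, where they also take up membrane stretch. Vesicles of either route feed early endosomes marked by Rab5, from which cargo is recycled through Rab4 and Rab11 or passed to late endosomes marked by Rab7. Scavenger receptors bind modified lipoproteins and a wide range of particles, chiefly on macrophages.

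Genes of each route were expressed in these cells, while the receptors Msr1 and Cd36 were at or near 0. On average over the 6 libraries, 3 of the genes lay at 100 FPKM or more, 22 between 10 and 100 FPKM, 5 between 1 and 10 FPKM and 2 under 1 FPKM. The 3 highest were Cavin1, a coat protein needed to form caveolae, Rab7, the GTPase of late endosomes, and Lrp1, a large receptor for lipoproteins and protease complexes. Summed over their genes, clathrin and its adaptors reached 373 to 377 FPKM in PS-MP and 365 to 373 FPKM in control libraries. The caveolar genes reached 325 to 399.5 FPKM in PS-MP and 329.97 to 412 FPKM in control libraries, and the endosomal genes 367 to 406 FPKM in PS-MP and 357 to 408 FPKM in control libraries. These summed levels overlapped between the groups in each of the 3 routes.

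**Figure D1:**
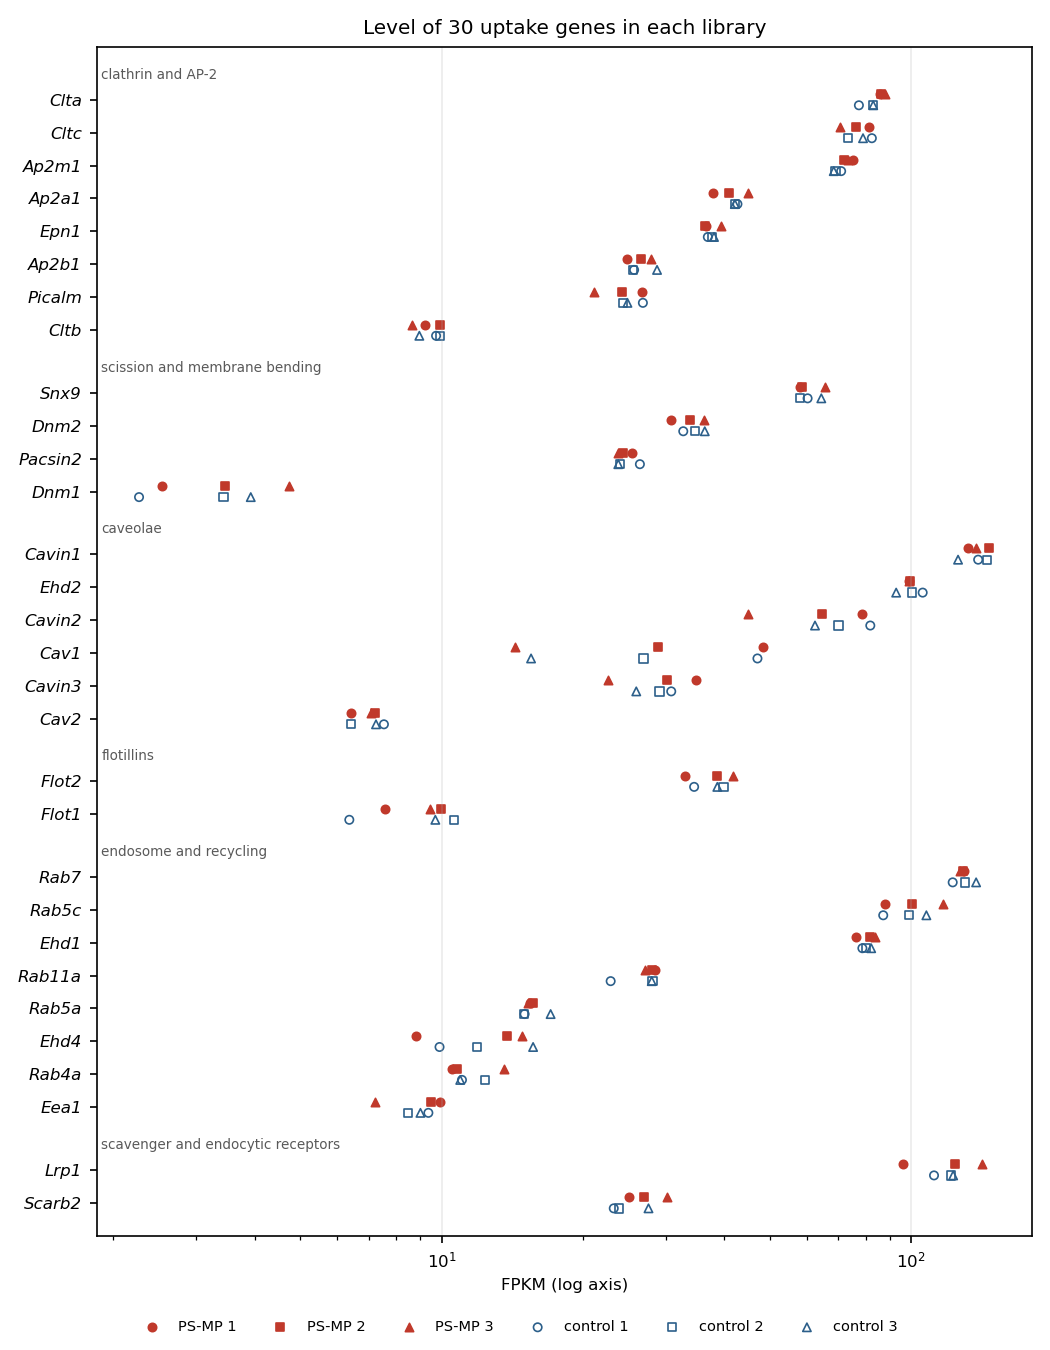
FPKM (x axis, log scale) of the 30 tested uptake genes in each library; filled red symbols are the 3 PS-MP libraries, open blue symbols below them the 3 control libraries, and the symbol shape gives the replicate number. The groups lie on top of each other in most rows, and the widest row is Cav1, where PS-MP and control libraries with the same number lie close together.

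None of these genes was called as different between PS-MP and control cells. With edgeR's quasi-likelihood test over 17186 genes, 0 of the 30 tested members had an adjusted p under 0.05 with at least a 1.5-fold difference, against 0% of all genes tested. An unadjusted p under 0.05 was reached by 0 of the 30 members and by 1.32% of all genes. DESeq2 also called 0 members, as did limma-trend on log2(FPKM + 1) and on log2(FPKM + 0.1), and each of these 3 gave 0 members an unadjusted p under 0.05. The log2 fold changes ran from -0.21 for Cavin2 to 0.14 for Dnm1, with 11 positive and 19 negative values and a median of -0.02, where the median over all genes tested was 0.00. The data also bound the size of a difference, as far as the scatter of these libraries goes. For 27 of the 30 members, or 90.0%, the 95% interval lay within 1.5-fold in both directions. The share was 81.8% of all genes tested at 1 FPKM or more, the class that holds all 30, and 57.1% of all genes tested. The 3 members with wider intervals were Cav1, Cavin2 and Dnm1.

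**Figure D2:**
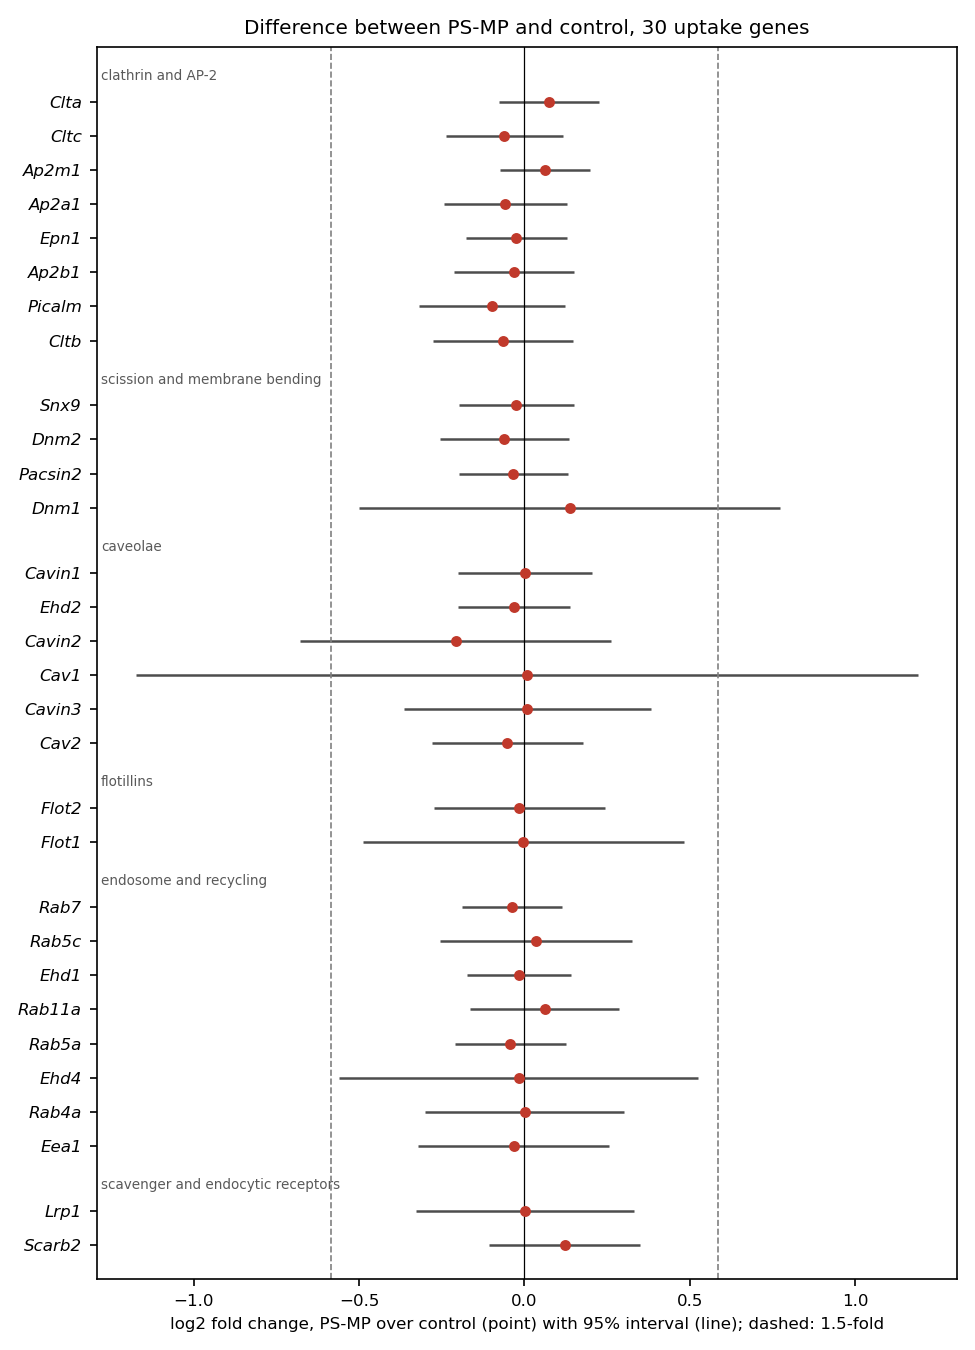
Log2 fold change of PS-MP over control (point) with its 95% interval (line) from edgeR for the 30 tested members, grouped by route; dashed lines mark 1.5-fold. Each interval includes 0, and only those of Cav1 (-1.18 to 1.19), Cavin2 (-0.68 to 0.26) and Dnm1 (-0.50 to 0.77) cross a dashed line.

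The clathrin coat and its adaptors were level in both groups, with a median log2 fold change of -0.04 over 8 genes, 2 positive and 6 negative. Cltc, the clathrin heavy chain (chromosome 11, 86585177 to 86648391, GRCm39), had 81.3, 76.5 and 70.6 FPKM in PS-MP libraries 1, 2 and 3, and 82.5, 73.5 and 79.0 FPKM in control libraries 1, 2 and 3. The groups overlapped, and the log2 fold change was -0.06 ± 0.08 (SE, as below). Clta, the light chain that predominates here, had 85.7, 86.2 and 88.1 FPKM in PS-MP and 77.4, 83.1 and 83.0 FPKM in control libraries (0.07 ± 0.06). The other light chain, Cltb, averaged 9.25 ± 0.649 FPKM in PS-MP and 9.55 ± 0.512 FPKM in control libraries, so that Clta stood 8.68 to 10.2 times as high in PS-MP and 7.95 to 9.26 times as high in control libraries. Ap2m1, the medium subunit of AP-2 that binds tyrosine-based sorting signals, had 75.3, 72.0 and 73.4 FPKM in PS-MP and 71.0, 69.1 and 68.4 FPKM in control libraries (0.06 ± 0.06, 95% interval -0.07 to 0.20). On the log2 CPM scale (counts scaled to library size) Ap2m1 was the 1 member with groups that did not overlap, its PS-MP libraries all above the control libraries, where 3.53% of all genes lay wholly higher and 6.21% were without overlap in either direction. The groups of Clta overlapped on that scale. The large AP-2 subunits Ap2a1 and Ap2b1 averaged 41.2 ± 3.47 and 26.5 ± 1.597 FPKM in PS-MP against 42.3 ± 0.292 and 26.7 ± 1.80 FPKM in control libraries. Epn1, which bends the membrane at the coat, had a log2 fold change of -0.02 ± 0.07, and Picalm, a clathrin assembly protein that binds phosphoinositides, one of -0.10 ± 0.09. Exons of antisense genes cover 48.9% of the exon bases of Ap2a1 and 34.0% of those of Ap2m1, and how strand was used in counting is not given, so the levels of these 2 genes are less certain. The same holds in lesser measure for others, as 10 members have over 10% of their exon bases in other genes. Besides these 2 and Flot1 they are Cavin1 (16.9%), Rab5a (16.4%), Cavin3 (15.0%), Rab4a (14.2%), Rab5c (13.3%), Ap2b1 (10.8%) and Clta (10.5%).

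Among the scission and membrane-bending genes the ubiquitous dynamin was far above the neuronal one. Dnm2, the dynamin present in most tissues, averaged 33.6 ± 2.68 FPKM in PS-MP and 34.6 ± 1.82 FPKM in control libraries (log2 fold change -0.06 ± 0.08). Dnm1, which is best known from synaptic vesicle recycling, had 2.54, 3.46 and 4.73 FPKM in PS-MP libraries 1, 2 and 3 and 2.27, 3.43 and 3.92 FPKM in control libraries 1, 2 and 3. It differed more between replicate numbers than between the groups (0.14 ± 0.27), as did the ratio of Dnm2 to Dnm1, which ran from 7.65 to 12.1 in PS-MP and from 9.27 to 14.4 in control libraries. Snx9, a sorting nexin that recruits dynamin to the bud, and Pacsin2, an F-BAR protein of caveolae and coated pits, both had a log2 fold change of -0.03 ± 0.07.

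The caveolar genes held the most abundant member of the list and the most variable one. Cavin1 had 132, 147 and 137 FPKM in PS-MP and 139, 145 and 126 FPKM in control libraries (log2 fold change 0.00, 95% interval -0.20 to 0.21). Ehd2, an ATPase that holds caveolae at the cell surface, averaged 99.0 ± 0.277 FPKM in PS-MP and 99.7 ± 6.47 FPKM in control libraries (-0.03 ± 0.07). Both were steady, with a highest library 1.17 times the lowest for Cavin1 and 1.14 times for Ehd2. Cav1, a structural caveolin (chromosome 6, 17306334 to 17341323, GRCm39), had 48.3, 28.8 and 14.3 FPKM in PS-MP libraries 1, 2 and 3, and 47.1, 26.9 and 15.5 FPKM in control libraries 1, 2 and 3. Libraries with the same number thus lay close together, while the highest of the 6 was 3.38 times the lowest. The difference between PS-MP and control was 0.01 ± 0.50, and the 95% interval of -1.18 to 1.19 bounds little. With the replicate number as a block, the estimate was -0.01 with an interval of -0.14 to 0.11.

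Cav2, which joins Cav1 in mixed oligomers, lies 17.2 kb upstream of it on the same strand (chromosome 6, 17281184 to 17289114) and did not share its spread. Cav2 had 6.42, 7.22 and 7.07 FPKM in PS-MP and 7.54, 6.42 and 7.25 FPKM in control libraries (log2 fold change -0.05 ± 0.10). The ratio of Cav1 to Cav2 was 7.52, 3.996 and 2.02 in PS-MP libraries 1, 2 and 3 and 6.24, 4.19 and 2.14 in control libraries 1, 2 and 3. Cavin2, a cavin that sets the shape of caveolae, had 78.8, 64.6 and 44.96 FPKM in PS-MP and 81.9, 70.1 and 62.4 FPKM in control libraries, and each PS-MP library lay below the control library with its number. Its log2 fold change of -0.21 ± 0.20 was the lowest of the list. With the replicate number as a block it was -0.23 with a 95% interval of -0.41 to -0.06, which did not pass adjustment over all genes (edgeR adjusted p = 0.884). The value rests largely on PS-MP library 3: without it the estimate was -0.018, and with the block and without the libraries numbered 3 it was -0.12. Without PS-MP library 1 it was -0.40, and without control library 1 it was -0.10. Cavin3, the cavin that binds protein kinase C delta, averaged 29.3 ± 6.18 FPKM in PS-MP and 28.6 ± 2.46 FPKM in control libraries (0.01 ± 0.16).

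The start regions of Cav1, Cav2 and Cavin2 are shown because these neighbours and partners differ in how they varied. Each window runs from 250 bases before to 50 bases after a start in RefSeq (GRCm38.p6, which gave windows for 27 of the 33 genes), was placed on GRCm39 by its single exact match, and lies on the plus strand. Capitals mark matches to motifs on either strand. The GC box was searched as GGGCGG. The second motif was the CCAAT box. The TATA box was searched as TATAAA. The AP-1 site was searched as TGANTCA. The E box was searched as CACGTG and the CArG box by its consensus, and neither has a match in these 3 windows.
Cav1 at chr6:17306084-17306383: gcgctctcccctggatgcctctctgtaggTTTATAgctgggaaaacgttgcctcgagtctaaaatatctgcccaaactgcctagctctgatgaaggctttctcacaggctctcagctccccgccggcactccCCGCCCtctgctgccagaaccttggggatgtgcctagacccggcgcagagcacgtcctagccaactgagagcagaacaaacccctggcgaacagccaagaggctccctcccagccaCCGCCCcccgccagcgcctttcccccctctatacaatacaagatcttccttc
Cav2 at chr6:17280934-17281233: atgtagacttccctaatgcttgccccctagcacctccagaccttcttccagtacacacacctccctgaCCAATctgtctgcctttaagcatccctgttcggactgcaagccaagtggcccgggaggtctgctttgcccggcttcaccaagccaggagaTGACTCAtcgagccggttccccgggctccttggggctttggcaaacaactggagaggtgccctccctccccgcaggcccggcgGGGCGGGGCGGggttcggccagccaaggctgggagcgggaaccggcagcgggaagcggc
Cavin2 at chr1:51328035-51328334: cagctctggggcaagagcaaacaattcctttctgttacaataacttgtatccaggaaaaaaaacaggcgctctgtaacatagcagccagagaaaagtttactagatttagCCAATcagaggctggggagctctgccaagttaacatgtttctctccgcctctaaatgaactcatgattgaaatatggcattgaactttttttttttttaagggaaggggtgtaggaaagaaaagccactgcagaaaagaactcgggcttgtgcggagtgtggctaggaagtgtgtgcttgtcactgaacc
The Cav1 window holds 2 GC boxes and 1 TATA box. The Cav2 window holds 2 GC boxes that share a base, 1 CCAAT box and 1 AP-1 site, and the Cavin2 window 1 CCAAT box. Over 32544 distinct RefSeq windows of 300 bases, 35.9% hold a GC box, 37.4% a CCAAT box, 13.6% a TATA box, 7.79% an AP-1 site, 1.64% a CArG box and 7.17% an E box, so these matches are common letters and a description only. Base composition differed, with 59.3% G and C in the Cav1 window, 64.3% in the Cav2 window and 43.3% in the Cavin2 window. The windows of Cavin1, which was steady, are not shown. Each holds 1 GC box and 1 CCAAT box, with 67.0% or 66.7% G and C. Base composition over all windows is not given, and a link between these sequences and the variation was not tested. A second start of Cav1 in RefSeq, 1.3 kb further downstream, has no match to any of these motifs.

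The flotillins, scaffold proteins of membrane microdomains that act in a clathrin-independent route, were expressed at unequal levels. Flot2 averaged 37.8 ± 4.47 FPKM in PS-MP and 37.7 ± 2.80 FPKM in control libraries. Flot1 had 7.58, 9.99 and 9.44 FPKM in PS-MP libraries 1, 2 and 3 and 6.36, 10.6 and 9.70 FPKM in control libraries 1, 2 and 3. Both libraries numbered 1 lay lowest, and the log2 fold change was -0.00 ± 0.21. Antisense exons cover 29.8% of the exon bases of Flot1.

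Genes of endosomes and recycling had a median log2 fold change of -0.02 over 8 genes, 3 positive and 5 negative. Rab7 had 129, 129 and 127 FPKM in PS-MP and 123, 130.3 and 138 FPKM in control libraries (-0.04, 95% interval -0.19 to 0.11). Rab5c, a Rab5 isoform of early endosomes, had 88.1, 100.4 and 117 FPKM in PS-MP and 87.2, 99.1 and 108 FPKM in control libraries (0.03 ± 0.12). It followed the replicate number in both groups, whereas its paralog Rab5a stayed between 15.0 and 17.1 FPKM over all 6 libraries (-0.04 ± 0.07). Eea1, the tether that Rab5 recruits to early endosomes, averaged 8.88 ± 1.47 FPKM in PS-MP and 8.96 ± 0.445 FPKM in control libraries (-0.03 ± 0.12). Rab4a, of rapid recycling, and Rab11a, of slow recycling, had log2 fold changes of 0.00 ± 0.13 and 0.06 ± 0.10. Ehd1, an ATPase of the recycling compartment, averaged 80.6 ± 3.95 FPKM in PS-MP and 80.4 ± 1.74 FPKM in control libraries. Its relative Ehd4, of early endosomes, had 8.84, 13.8 and 14.8 FPKM in PS-MP and 9.90, 11.9 and 15.7 FPKM in control libraries, and both libraries numbered 1 lay lowest (-0.02 ± 0.23).

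Of the receptors, Lrp1 and Scarb2 were expressed and Msr1 and Cd36 were at or near 0. Lrp1 had 96.3, 124 and 142 FPKM in PS-MP and 112, 122 and 123 FPKM in control libraries (log2 fold change 0.00, 95% interval -0.33 to 0.33). Scarb2, a CD36-family protein of the lysosomal membrane that carries beta-glucocerebrosidase (chromosome 5, 92589173 to 92654692), had 25.1, 27.0 and 30.2 FPKM in PS-MP and 23.3, 23.9 and 27.6 FPKM in control libraries. Each PS-MP library lay above the control library with its number, by 0.08, 0.15 and 0.13 in log2 CPM, and the groups overlapped (0.12 ± 0.10). With the replicate number as a block the 95% interval was 0.01 to 0.23, which did not pass adjustment over all genes (edgeR adjusted p = 0.884). Without PS-MP library 3 the estimate was 0.046 and without control library 1 it was 0.073, while without PS-MP library 1 or control library 3 it was 0.19. Msr1, scavenger receptor A, was listed at 13 counts in control library 1 and at 0 in the other 5 libraries. Cd36, a receptor for oxidised lipids and long-chain fatty acids, was listed at 4 counts in PS-MP library 2, at 11 counts in control library 1 and at 0 in the other 4. Both were below the filter on low counts and were not tested. The pan-leukocyte marker Ptprc was at 0 in PS-MP libraries and at most 0.00288 FPKM in control libraries. Other markers of the leukocyte list were expressed. Cd14 averaged 4.14 FPKM in PS-MP and 5.13 FPKM in control libraries, and Cd68 2.54 FPKM in PS-MP and 2.29 FPKM in control libraries. Whether the cultures held leukocytes was not tested.

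Pairs of libraries with the same replicate number were also compared for direction. In log2 CPM, 3 of the 30 members lay higher with PS-MP in all 3 pairs (Clta, Ap2m1 and Scarb2), against 14.6% of all genes tested. Another 4 lay lower in all 3 pairs (Cltb, Picalm, Dnm2 and Cavin2), or 13.3%, which is also the share of all genes. In the fit with the replicate number as a block, edgeR gave an unadjusted p under 0.05 for 2 members, Cavin2 and Scarb2, or 6.67%, against 4.94% of all genes. No member was called in that fit (lowest adjusted p = 0.884), in which 0.00582% of all genes were, and all 30 intervals then lay within 1.5-fold.

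The replicate number, which both groups share, went with most of the variation of these genes. In a fit of both terms the number has 2 degrees of freedom and treatment 1, with 2 left over. The median share of the variance of log2 CPM that went with the number was 73.2% over the 30 members, against 67.1% over genes at 1 FPKM or more and 61.2% over all genes tested. The median share that went with treatment was 6.27% over the members, against 6.29% over genes at 1 FPKM or more and 7.40% over all genes. In 20 of the 30 members more than 50% of the variance went with the number. The median of 61.2% puts most of all genes tested above 50% too. In 1 member, Ap2m1, more than 50% went with treatment (62.2% of a small total). Cav1 stood at one end, with 99.7% of its variance following the number and 0.00825% following treatment, and Cav2 at the other, with 5.25% following the number.

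**Figure D3:**
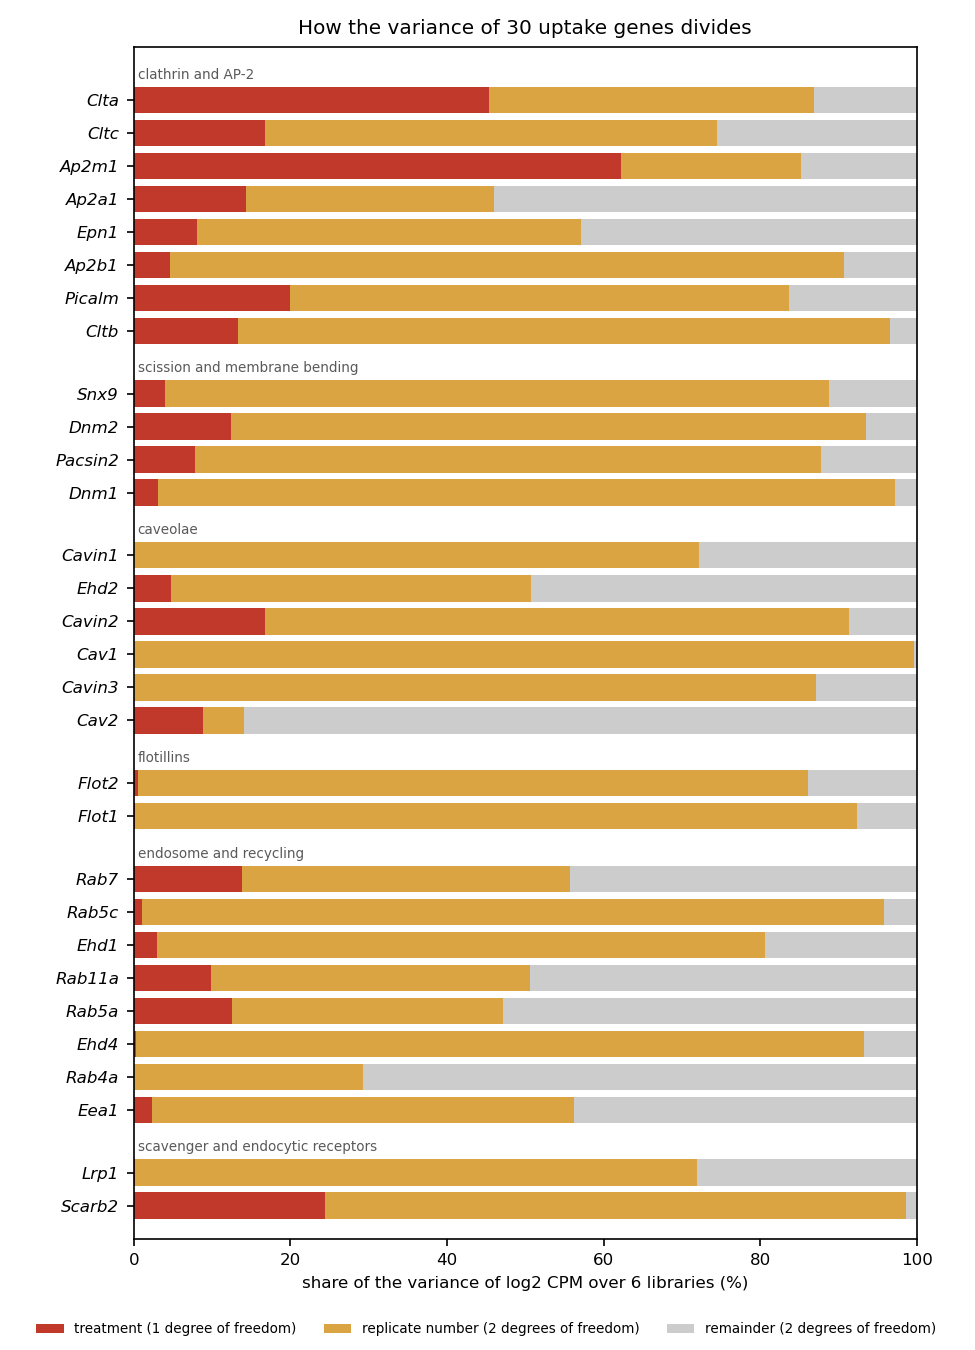
Share of the variance of log2 CPM over 6 libraries (x axis, %) that went with treatment (red), with the replicate number (ochre) and with neither (grey), for each of the 30 tested members. The number takes 99.7% for Cav1 and 5.25% for Cav2, and treatment exceeds 50% for Ap2m1 alone.

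A test of the replicate number within the blocked fit called 5 members. The numbers were taken as pairs from these same libraries, so the p-values here are no separate check on the pairing. By edgeR's quasi-likelihood F test, Cav1, Dnm1, Ehd4, Cavin2 and Flot1 had an adjusted p under 0.05 and a difference of at least 1.5-fold between numbers, or 16.7% of the members, against 7.34% of all genes tested and 8.14% of genes at 1 FPKM or more. Cav1 differed 3.20-fold between numbers (adjusted p = 0.000102, edgeR), with log2 differences of -0.75 for libraries numbered 2 and -1.68 for libraries numbered 3 from those numbered 1. Dnm1 differed 1.79-fold (adjusted p = 0.00551, edgeR) and Ehd4 1.62-fold (adjusted p = 0.0068, edgeR), both highest in libraries numbered 3. Cavin2 (1.51-fold, adjusted p = 0.0117, edgeR) was highest in libraries numbered 1 and Flot1 (1.51-fold, adjusted p = 0.0184, edgeR) in those numbered 2. At an adjusted p under 0.05 regardless of fold there were 8 members, against 14.9% of all genes. The 3 under the 1.5-fold threshold were Cavin3 (1.35-fold, adjusted p = 0.0349, edgeR), Rab5c (1.28-fold, adjusted p = 0.0174, edgeR) and Scarb2 (1.19-fold, adjusted p = 0.0464, edgeR). Of 12 alternatives, Cav1 was called in 12, Ehd4 in 11, Dnm1 in 10, Cavin2 in 8 and Flot1 in 7. Without PS-MP library 1 only Cav1 and Flot1 were called, and without control library 1 only Cav1, Ehd4 and Cavin2. Cavin2 was also lost without PS-MP library 3, and Flot1 without control library 2 and by limma-trend on log2(FPKM + 0.1). With no filter on low counts, and by limma-trend on log2(FPKM + 1), both Cavin2 and Flot1 were lost.

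**Figure D4:**
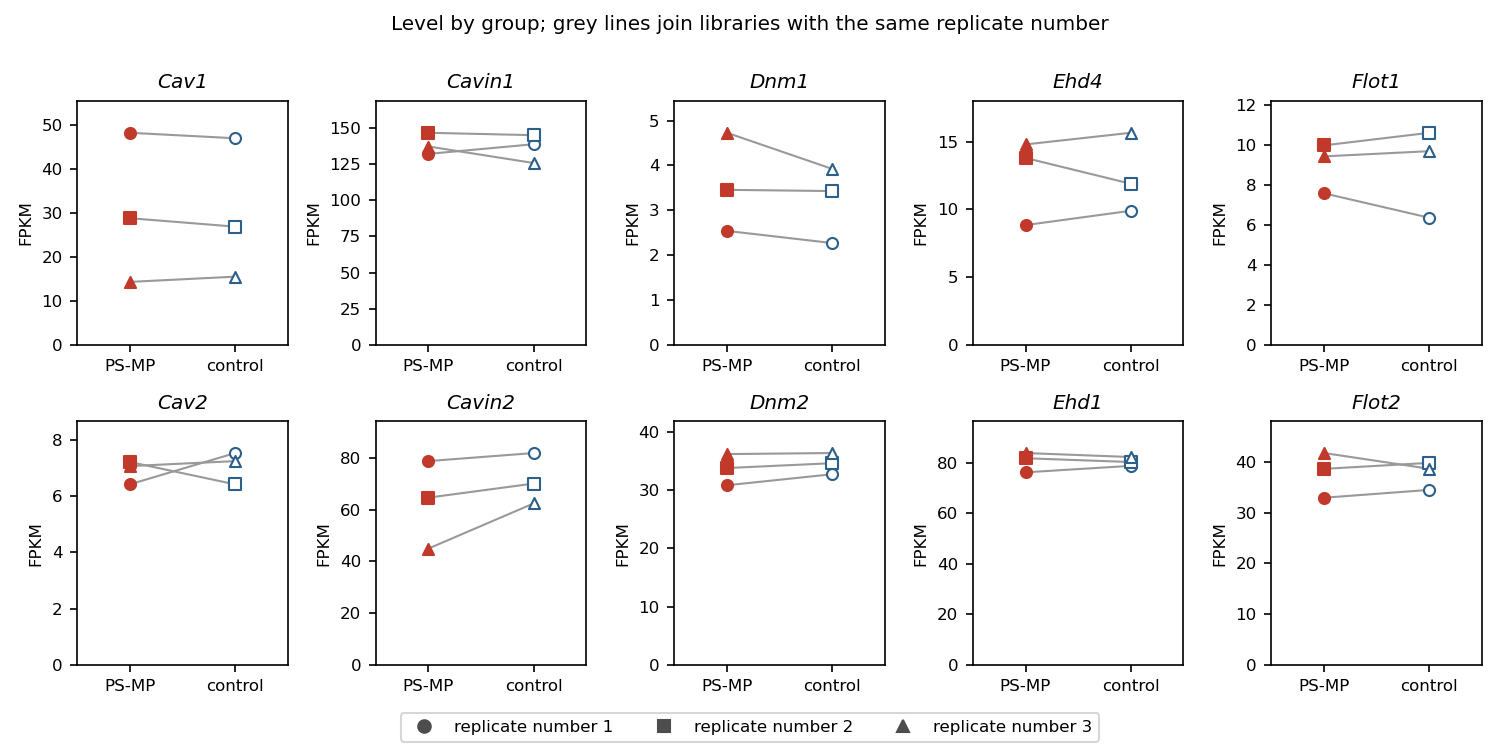
FPKM (y axis, from 0) in PS-MP (filled red, left) and control libraries (open blue, right), with grey lines joining libraries of the same replicate number. The top row shows Cav1, Cavin1, Dnm1, Ehd4 and Flot1 and the bottom row Cav2, Cavin2, Dnm2, Ehd1 and Flot2; the 3 lines of Cav1 are far apart and nearly flat, at about 48.3, 28.8 and 14.3 FPKM on the PS-MP side and 47.1, 26.9 and 15.5 FPKM on the control side.

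Summed levels of several marker lists differed between replicate numbers, and the lists did not share a direction. Granulosa, theca, surface epithelium, pericyte and smooth muscle, and fibroblast sums were highest in libraries numbered 1, as were Cav1 and Cavin2. Leukocyte and adipocyte sums were highest in libraries numbered 3. The share of all genes called between numbers was 7.34%, beside which the counts of called markers stand. Granulosa markers, summed over 14 genes, were at 156, 137 and 108 FPKM in PS-MP libraries 1, 2 and 3 and at 169, 131 and 130.1 FPKM in control libraries 1, 2 and 3, with 2 of 10 tested called. Most of that sum was Inhba, at 133, 116 and 87.5 FPKM in PS-MP and at 146, 111 and 109 FPKM in control libraries. Gja1, another granulosa marker, instead rose with the number, at 10.2, 11.3 and 11.7 FPKM in PS-MP and at 9.34, 10.1 and 11.3 FPKM in control libraries. Neither of these genes was called between numbers. Inhba had an adjusted p of 0.012 (edgeR) but stayed under the 1.5-fold threshold, and Gja1 had an adjusted p of 0.069 (edgeR). Theca markers summed over 6 genes to 14.1, 11.8 and 10.1 FPKM in PS-MP and to 12.8, 11.01 and 10.1 FPKM in control libraries, with 1 of 4 called. Summed over 9 genes, surface epithelium markers were at 32.97, 10.5 and 4.17 FPKM in PS-MP libraries 1, 2 and 3 and at 28.7, 10.6 and 4.14 FPKM in control libraries 1, 2 and 3, and 6 of the 7 tested were called between numbers. Summed over 11 genes, pericyte and smooth muscle markers were at 3741, 3328 and 2521 FPKM in PS-MP and at 3561, 3407 and 2787 FPKM in control libraries, with 4 of 11 called and 7 not. Over 8 genes, fibroblast markers were at 1279, 1036 and 869 FPKM in PS-MP and at 1496, 1081 and 853 FPKM in control libraries, with 4 of 8 called. Endothelial markers, of interest because endothelium is rich in caveolae, were near 0. They summed over 8 genes to 0.401, 0.218 and 0.367 FPKM in PS-MP libraries 1, 2 and 3. In control libraries 1, 2 and 3 the sums were 0.407, 0.230 and 0.251 FPKM, so libraries numbered 2 lay lowest. Of 3 tested, 1 was called. That gene was Kdr, a receptor for vascular endothelial growth factor, at 0.282, 0.0779 and 0.0269 FPKM in PS-MP libraries 1, 2 and 3 and 0.238, 0.105 and 0.0161 FPKM in control libraries 1, 2 and 3 (adjusted p = 0.00352, edgeR). Leukocyte markers summed over 9 genes to 6.95, 6.85 and 9.46 FPKM in PS-MP libraries 1, 2 and 3, most of it Cd14 and Cd68. In control libraries 1, 2 and 3 they summed to 7.56, 7.42 and 10.9 FPKM, with 0 of 4 tested called. Adipocyte markers summed over 5 genes to 2.24, 2.71 and 3.08 FPKM in PS-MP and to 2.25, 2.72 and 2.91 FPKM in control libraries. Of 2 tested, 0 were called. The part of these cell types in the differences between replicate numbers was not tested.

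No further gene of these pathways was called for treatment. Of 146 further genes in 8 lists, 138 were tested, and edgeR called 0 of them, against 0% of all genes tested. An unadjusted p under 0.05 was reached by 0 of the 138 and by 1.32% of all genes. Their log2 fold changes were positive in 61 and negative in 77, with a median of -0.01, and ran from -1.14 to 0.56. Both ends were in the receptor list, where 14 of 22 genes reached 1 FPKM on average, and neither gene was called. In log2 CPM the groups did not overlap for 3 higher and 6 lower genes of the 138, where 6.21% of all genes were without overlap. Intervals lay within 1.5-fold for 115 of the 138, or 83.3%. That is near the 81.8% of genes at 1 FPKM or more, where all genes tested had 57.1%. In the receptor list the intervals lay within 1.5-fold for only 10 of 22. The lowest list median was that of the clathrin pathway (-0.04 over 26 genes, 7 positive and 19 negative) and the highest that of late endosomes (0.02 over 16 genes, 9 positive and 7 negative). Hspa8, the chaperone that strips clathrin from vesicles, averaged 302 ± 32.0 FPKM in PS-MP and 284 ± 27.3 FPKM in control libraries (0.06 ± 0.10). Ap2s1, the small AP-2 subunit, had a log2 fold change of 0.02 ± 0.07, and Cttn, an actin-binding protein at buds, and Bin1, an amphiphysin, had values of -0.00 ± 0.07 and -0.03 ± 0.07. For macropinocytosis and other clathrin-independent uptake, Arf1, a small GTPase, averaged 247 ± 17.6 FPKM in PS-MP and 236 ± 16.2 FPKM in control libraries (0.04 ± 0.08), and Cdc42, a GTPase that drives actin at the membrane, 152 ± 10.9 FPKM in PS-MP and 149.6 ± 2.76 FPKM in control libraries (0.00 ± 0.07). Hgs, which sorts ubiquitinated cargo, and Tsg101, of the ESCRT machinery that follows it, had log2 fold changes of -0.06 ± 0.07 and 0.10 ± 0.07. Rab31 of early endosomes had a log2 fold change of 0.03 ± 0.12, Chmp4b of ESCRT-III one of 0.04 ± 0.10, Snx3 of recycling one of 0.03 ± 0.06 and Rab10 one of -0.09 ± 0.06. Of the further caveolar genes, Ehd3 averaged 3.30 ± 0.456 FPKM in PS-MP and 3.31 ± 0.285 FPKM in control libraries, and Cavin4 0.722 ± 0.110 FPKM in PS-MP and 0.701 ± 0.116 FPKM in control libraries.

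Between replicate numbers, 10 of the 138 further genes, or 7.25%, were called, against 7.34% of all genes tested. Of these, 6 were receptors among 22 tested, and they did not share a direction. Lrp2, the giant endocytic receptor megalin, differed on the log2 scale by -1.601 in libraries numbered 2 and by -2.87 in libraries numbered 3 from those numbered 1 (adjusted p = 0.000233, edgeR). Lrp8, a receptor for reelin, differed by -0.47 and -0.61 in these comparisons (adjusted p = 0.00984, edgeR). Mrc2, a collagen-binding endocytic receptor of mesenchymal cells, had 40.2, 62.0 and 82.4 FPKM in PS-MP libraries 1, 2 and 3 and 43.8, 63.2 and 75.0 FPKM in control libraries 1, 2 and 3, and so was lowest in libraries numbered 1, as were Cxcl16 and Olr1. Colec12, a scavenger receptor C-type lectin, averaged 20.2 ± 1.63 FPKM in PS-MP and 20.5 ± 1.11 FPKM in control libraries and was not called for the number. These genes, other than Mrc2 and Colec12, were named after their values were seen.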

How the data were processed

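Per the labels, mRNA was selected with oligo(dT) beads and the second strand was marked with dUTP. The submitters' processing notes name cutadapt 1.9, FastQC, HISAT2 2.2.1, StringTie 2.1.6 and GRCm39; the annotation is not given. The deposited FPKM were made by the authors with StringTie and ballgown, per the labels. How the deposited estimated count per gene was made, and whether strand was used, the sources do not say; these are whole numbers with an excess of 4s (6687 values, with 3161 values of 3). The table holds 2 sets of columns with C and P names; the 12 columns of the second set, for 6 libraries, were not used, and columns were matched to samples by name only, which does not settle which set is theirs.

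edgeR 4.0.16 (R 4.3.3) was run on TMM-scaled counts after filterByExpr, with treatment as the term and Benjamini-Hochberg adjustment over 17186 genes; calls needed an adjusted p under 0.05 and 1.5-fold, two-sided, and SEs and intervals come from that fit. Replicate numbers were tested in a fit with both terms. Deviations from group means were correlated over 9336 genes above 10 CPM. Libraries sharing the numbers 1, 2 and 3 in the labels correlated at 0.81, 0.15 and 0.62, so the numbers were taken as pairs. Number 2 is the weakest pair, as PS-MP 2 correlated at 0.38 with control 3 and control 2 at 0.17 with PS-MP 3. Blocked intervals and tests of the number rest on this pairing, which was accepted from the same libraries. Every pair of libraries differed by more than sampling noise. DESeq2 1.42.0 and limma 3.58.1 served as alternatives. Precision is limited by 3 libraries per group. Exon overlap came from GENCODE M39, which has 30610 of the gene IDs. Scripts were tested on simulated data. All members are named, and the 2 highest genes of each pathway list. A result on 1 further receptor is not reported here. Members and lists were chosen with earlier results of these data known.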

Additional observations from a re-analysis of the deposited data

How the results depend on the processing

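No member was called between PS-MP and control under any of 16 alternatives: DESeq2, no filter or a filter at 10 CPM, limma-trend with both pseudocounts, the replicate block, counts divided by 4, leaving out each library and, with the block, each replicate number. The lowest adjusted p of a member was 0.613, with the block and without number 3. Of 480 log2 fold changes, 402 kept their direction, and 78 values of 23 genes turned. Of the log2 fold changes that turned with the replicate block, Cav1 was at -0.011, Cavin3 at -0.0076, Flot1 at 0.020, Rab4a at -0.0058 and Lrp1 at -0.016. With DESeq2, Cav1 was at -0.00058, Cavin1 at -0.0029, Rab4a at -0.0041 and Lrp1 at -0.0023. With log2(FPKM + 1) and log2(FPKM + 0.1), Flot1 was at 0.035 and 0.041, Flot2 at 0.00064 and 0.00055 and Ehd1 at 0.00207 and 0.00209. With libraries left out, the lowest and highest log2 fold changes ran for Ap2a1 from -0.14 to 0.0085, Ap2b1 from -0.073 to 0.019, Epn1 from -0.064 to 0.0046, Dnm1 from -0.12 to 0.34, Dnm2 from -0.12 to 0.0029, Snx9 from -0.084 to 0.012, Pacsin2 from -0.074 to 0.015, Cav1 from -0.48 to 0.49, Cav2 from -0.15 to 0.052, Cavin1 from -0.067 to 0.061, Cavin3 from -0.13 to 0.16, Ehd2 from -0.091 to 0.023, Flot1 from -0.20 to 0.16, Flot2 from -0.094 to 0.079, Eea1 from -0.13 to 0.097, Rab4a from -0.16 to 0.11, Rab5a from -0.075 to 0.018, Rab5c from -0.076 to 0.13, Rab7 from -0.081 to 0.00039, Rab11a from -0.038 to 0.12, Ehd1 from -0.046 to 0.028, Ehd4 from -0.16 to 0.18 and Lrp1 from -0.13 to 0.14. The clathrin median was -0.0262 and -0.0266 by limma-trend with pseudocounts 1 and 0.1 and ran from -0.057 to 0.00097 with libraries left out. Over all genes 0 were called, against 1 with DESeq2, 1 with the replicate block and 0 to 15 with libraries left out; the block changed no other call named here. Members called between replicate numbers were 5, against 3 with no filter, 3 with log2(FPKM + 1) and 2 to 5 with a library left out. The share of all genes called between numbers, 7.34%, is that of the main fit alone. Whether the lower counts are particular to these members therefore cannot be told. The cause was not tested. Msr1 and Cd36, at most 13 counts, are too low for a statement on treatment.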
